A study of Mus musculus with 4 samples.

Results

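The genes described here encode the ATP-dependent chromatin remodellers other than ISWI, namely the SWI/SNF (BAF), CHD, INO80 and NuRD enzymes and subunits. A list of 36 genes was matched to the platform annotation by current symbol or by a synonym that points to 1 gene, and all 36 were measured, among 19909 genes in all. The list was drawn up from the roles of the genes and not from their values, though with earlier results of these data known. The data come from 4 two-colour arrays, each carrying cerebellar RNA of both genotypes, a Smarca5 conditional knockout (cKO) and wild type. Both were C57Bl/6 mice dissected at postnatal day 0. Smarca5 encodes Snf2h, the ATPase of the ISWI remodellers. The labels name 3 RNA samples per genotype and do not give the Cre driver, the number of animals in a sample or the deleted part of the gene. Replicates 1 and 4 shared a wild-type RNA sample, and replicates 3 and 4 shared a cKO sample. On replicates 1 and 3 the dye of the cKO RNA was Cy5, and on the other arrays it was Cy3.

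Chromatin remodellers use ATP to slide, evict or exchange nucleosomes, and all of their motors belong to the SNF2 helicase family. SWI/SNF complexes mainly open chromatin, and during neurogenesis they exchange some subunits as progenitors become neurons. CHD proteins carry chromodomains beside the motor. Chd3, Chd4 and Chd5 are the motors of NuRD, which joins remodelling to histone deacetylation. INO80, SRCAP and EP400 are linked to the placing of the histone variant H2A.Z in nucleosomes. The comparison asks whether these other remodellers were higher or lower in cerebella in which the ISWI motor Snf2h had been deleted.

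Each value is a log2 ratio of cKO over wild type, after the median of its array was set to 0. The ratios come with no statement of log base or direction, so base 2 is an assumption and cKO over wild type the likely reading. That ratios were set by genotype and not by dye rests on 52 features with a ratio of more than 4 in size on every array. All 52 changed sign with the dye orientation, with medians of -7.00, 7.04, -6.38 and 6.52 on replicates 1 to 4. Ratios taken as Cy5 over Cy3 throughout would have kept their sign. These features do not tell which genotype is the numerator, and for that cKO is taken only because the labels place it in the second channel of every array. The targeted gene was read by 2 features. The feature annotated as Smarca5 gave -0.36, -1.16, -1.43 and -0.75 on replicates 1 to 4, while another, under a clone name that RefSeq lists for Smarca5, gave 0.01, 0.34, 0.10 and 0.47. Only the first lay below 0 on all arrays, and whether either lies in the deleted part is not known here.

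No remodeller gene passed the test. Each gene was fitted with limma across all genes, and 0 of the 36 genes had a Benjamini-Hochberg adjusted p under 0.05, where 0.0% of all genes did. At an unadjusted limma p under 0.05 there were 0 of 36, against 1.56% of all genes. The fitted ratios of the 36 genes ranged from -0.62 (Gatad2a) to 0.50 (Smarcad1), with 18 above 0 and 18 below, where 50.7% of all genes had a fitted ratio below 0. Their median was -0.017, beside -0.0044 over all genes. By the mean of 4 arrays 14 of the 36 genes lay above 0 and 22 below, beside 9869 and 9949 of all genes. Those means ranged from -0.46 (Gatad2a) to 0.37 (Chd6). In whole tissue, fewer cells of a type and less RNA per cell cannot be told apart.

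The fit gave arrays that share an RNA sample a correlation of 0.5, a value that was set and not estimated. The correlations measured over genes for these arrays were far lower, at 0.012 (replicates 1 and 4) and -0.044 (replicates 3 and 4). Under the set value the fitted ratio is the mean of replicates 1, 2 and 3, while replicate 4, at a weight of 0, enters the error alone. That estimate holds 2 arrays with cKO in Cy5 and 1 with cKO in Cy3, and the mean of all 4 arrays is balanced for dye. For the groups and for part of the genes it is given as mean ± SD over n = 4 arrays (3 RNA samples of each genotype). With arrays fitted as independent, limma again called 0 of the 36 genes and 0.0% of all genes. At an unadjusted p under 0.05 it gave 2 of the 36, Gatad2a and Chd6, against 5.0% of all genes.

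**Figure D1:**
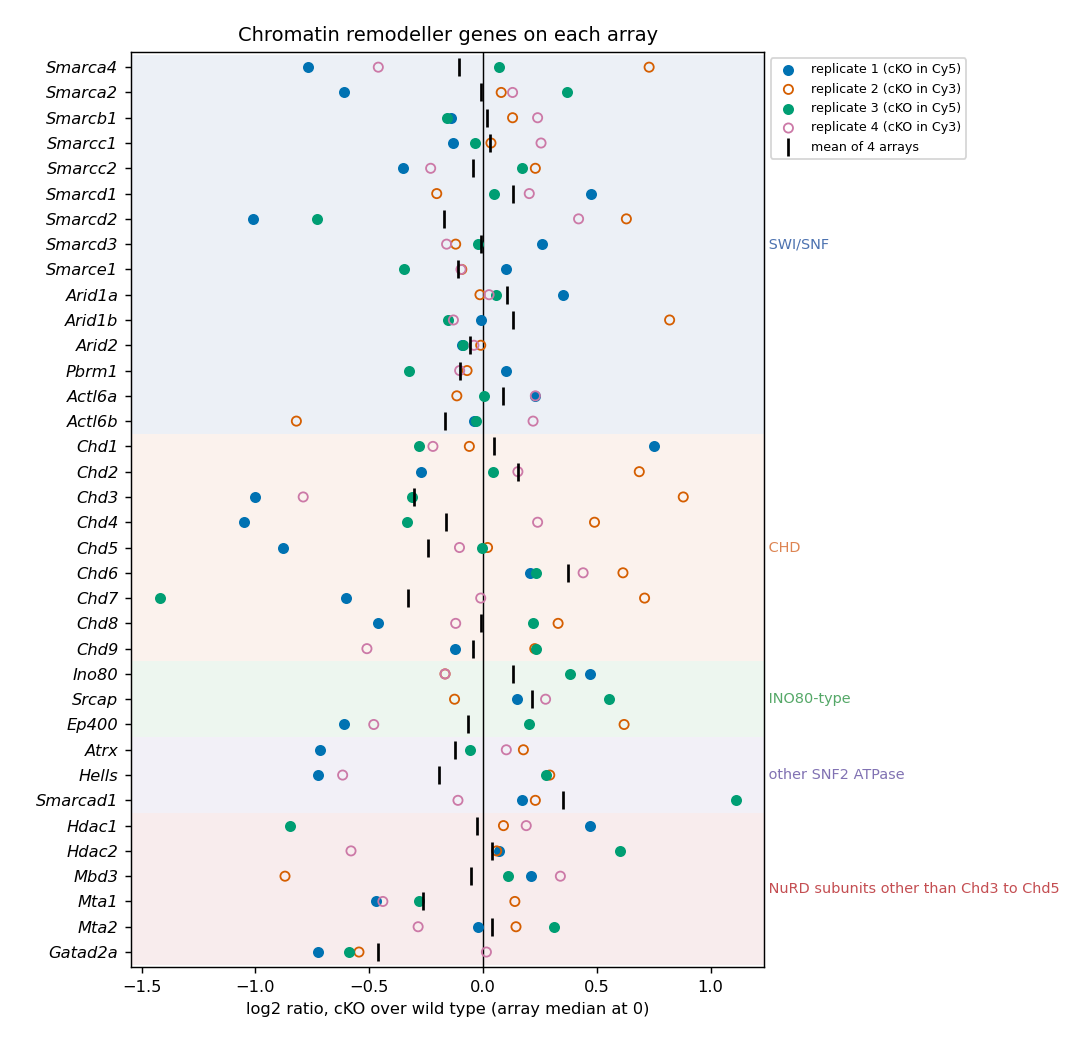
Log2 ratio of cKO over wild type (horizontal axis, array median at 0) of the 36 remodeller genes on each array, with filled points for arrays with cKO in Cy5, open points for cKO in Cy3 and a bar for the mean of 4 arrays. Chd6 lies above 0 and Arid2 slightly below 0 on all 4 arrays, while all other remodeller genes have arrays on both sides of 0.

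The intervals show how large a difference in the averaged features of a gene could have gone unseen. The 95% interval of the fitted ratio lay within a 2-fold change either way (between -1 and 1 on the log2 scale) for 29 of the 36 genes, or 80.6%, where 60.8% of all genes had such an interval. The intervals are not adjusted for the number of genes. Smarca5, the targeted gene, also had an interval within that range, from -0.98 to 0.14. Its fitted ratio was -0.42 ± 0.23 (SE, limma p 0.118), an average over 2 features that differed in sign. An interval within a 2-fold change therefore does not show that the RNA itself was unchanged. Exceptions among the 36 genes were Smarcd2, Chd3, Chd4, Chd7, Smarcad1, Hdac2 and Gatad2a, whose intervals reached past a 2-fold change on at least 1 side. Under independent arrays 34 of the 36 genes had intervals within that range, against 82.7% of all genes, and the exceptions were Chd3 and Chd7. The median standard error (SE) of the 36 fitted ratios was 0.27, beside 0.28 over all genes.

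**Figure D2:**
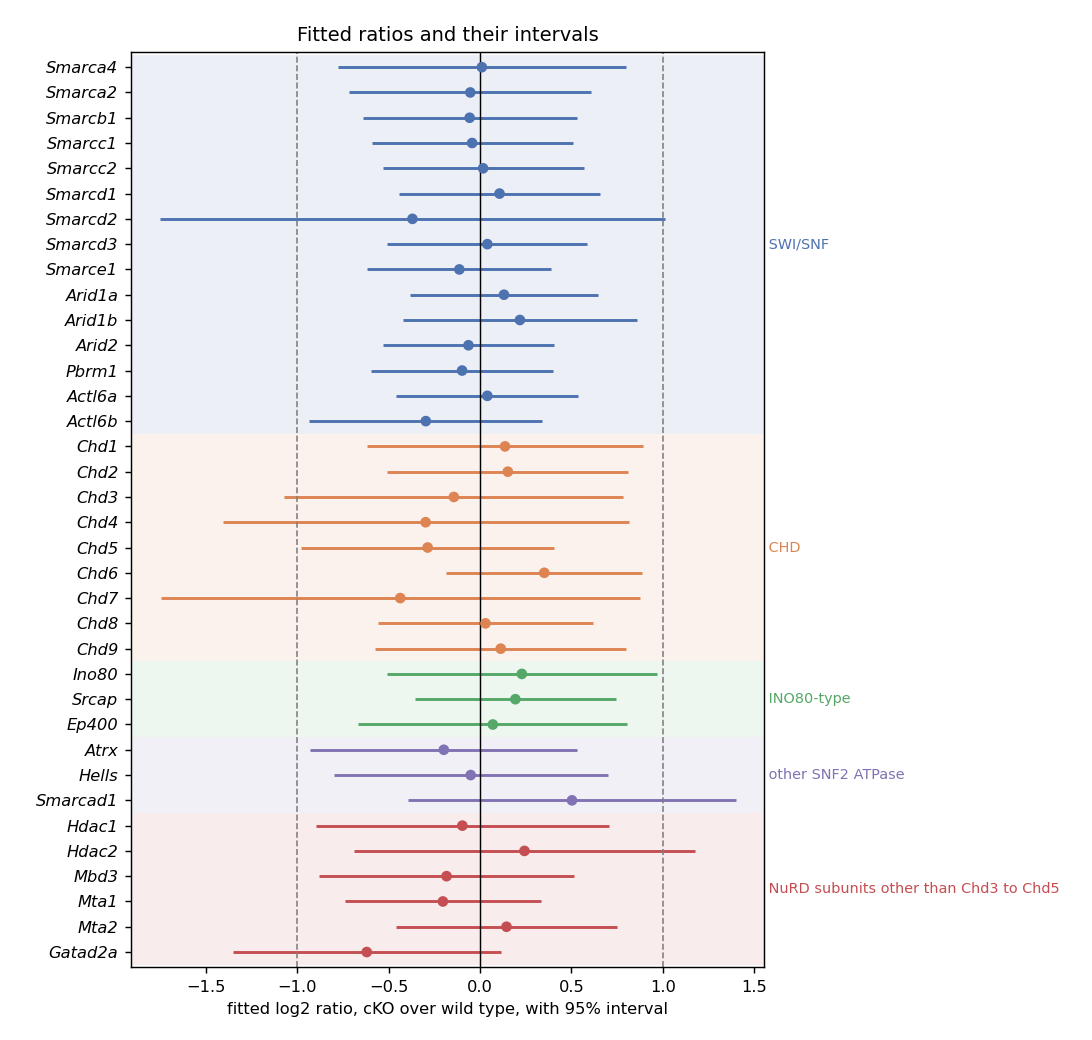
Fitted log2 ratio of cKO over wild type (points) with its 95% interval (bars) for each remodeller gene, coloured by complex, with dashed lines at a 2-fold change either way. All 36 intervals include 0, and 7 reach past a dashed line.

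The motors of SWI/SNF, Smarca4 (Brg1) and Smarca2 (Brm), had means that were small against their spread over arrays. Smarca4 read -0.77, 0.73, 0.07 and -0.46 on replicates 1 to 4. Its mean was -0.11 ± 0.66 (SD) and its fitted ratio 0.01 ± 0.32 (SE, limma p 0.976). Replicates 1 and 4, which shared a wild-type sample, were the low arrays. Smarca2 gave -0.61, 0.08, 0.37 and 0.13, with a fitted ratio of -0.05 ± 0.27 (SE, limma p 0.849), so only replicate 1 was below 0. The difference Smarca4 minus Smarca2 had a mean of -0.10 ± 0.53 (SD) and changed sign between arrays.

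The core scaffold subunits of SWI/SNF had ratios between -0.35 and 0.26 on every array. Smarcb1 (Snf5), part of the module that grips the nucleosome, had ratios of -0.14, 0.13, -0.16 and 0.24, below 0 on the Cy5 arrays and above 0 on the Cy3 arrays. Smarcc1 (Baf155), a scaffold subunit, was at -0.13, 0.04, -0.04 and 0.26, with the same order of signs. One of its 2 features read 0.13, 0.10, 0.08 and 0.22, and the other -0.39, -0.03, -0.15 and 0.29. Neither feature alone had that order of signs. The paralog of Smarcc1, Smarcc2 (Baf170), read by 1 feature under a clone name, was at -0.35, 0.23, 0.17 and -0.23. The SDs of these genes over the 4 arrays were 0.20, 0.16 and 0.29, each larger than the size of the mean (0.018, 0.031 and -0.045). Smarce1 (Baf57), the HMG-box subunit, read 0.10, -0.09, -0.35 and -0.10, with a fitted ratio of -0.11 ± 0.20 (SE, limma p 0.600). One of its 3 features, under a clone name, ran from 1.08 on replicate 1 to -0.89 on replicate 3.

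The Smarcd genes encode alternative Baf60 subunits. Smarcd1 read 0.47, -0.20, 0.05 and 0.20, so 3 of 4 arrays were above 0, with a fitted ratio of 0.11 ± 0.22 (SE, limma p 0.650). Of its 3 features 1 lay above 0 on all arrays, at 0.80, 0.24, 0.49 and 0.21, and the means of the others were -0.025 and -0.018. Smarcd3, known from muscle and neurons, read 0.26, -0.12, -0.02 and -0.16. Smarcd2 had the widest spread of the SWI/SNF genes, at -1.01, 0.63, -0.73 and 0.42. Its sign followed the dye on every array, below 0 with cKO in Cy5 and above 0 with cKO in Cy3, and its mean was -0.17 ± 0.82 (SD). The difference Smarcd1 minus Smarcd2 went from 1.48 on replicate 1 to -0.83 on replicate 2.

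The ARID and PBAF subunits, which set the type of SWI/SNF complex, had ratios between -0.33 and 0.35 except for Arid1b on replicate 2. Arid1a, a subunit of canonical BAF, read 0.35, -0.01, 0.06 and 0.03, and its 3 features ranged in mean from -0.07 to 0.38. Its paralog Arid1b read -0.01, 0.82, -0.16 and -0.13, so that replicate 2 stood apart, where 1 of its 2 features read 1.36 and the other 0.28. Arid2, of the PBAF complex, was the only remodeller gene below 0 on all 4 arrays, where 5.72% of all genes were. It read -0.09, -0.01, -0.09 and -0.04, a mean of -0.06 ± 0.04 (SD), and its 3 features differed in sign. The fitted ratio of Arid2 was -0.06 ± 0.19 (SE, limma p 0.752), with a 95% interval from -0.53 to 0.41. Pbrm1 (Baf180), the polybromo subunit of PBAF, was measured by 4 features that all carried a clone name. Its values were 0.10, -0.07, -0.33 and -0.10, with a fitted ratio of -0.10 ± 0.20 (SE, limma p 0.646).

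Actl6a (Baf53a) belongs to the SWI/SNF complex of neural progenitors, and Actl6b (Baf53b) replaces it in neurons. Actl6a read 0.23, -0.12, 0.01 and 0.23, with a fitted ratio of 0.04 ± 0.20 (SE, limma p 0.850). Its 2 features disagreed on replicate 4, at 0.87 and -0.41. Actl6b read -0.04, -0.82, -0.03 and 0.22, with a fitted ratio of -0.30 ± 0.26 (SE, limma p 0.296), and only replicate 2 was clearly below 0. The mean of Actl6b was -0.17 ± 0.45 (SD). Another 3 features carried the older name Actl6, which RefSeq lists for both genes, so they were not assigned to either. On replicate 2 they read -1.34, 0.32 and -1.27. Actl6a lay above Actl6b on all 4 arrays, by 0.27, 0.70, 0.03 and 0.01, with a mean difference of 0.26 ± 0.32 (SD), which is within the spread of the arrays. Of the 13 paralog differences computed, 2 had 1 sign on all 4 arrays, this one and that of Mta1 and Mta2.

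Over the 15 SWI/SNF genes the mean ratio was -0.11, 0.08, -0.08 and 0.03 on replicates 1 to 4, and the mean of these was -0.02 ± 0.09 (SD). The median fitted ratio was -0.04, with 7 genes above 0 and 8 below. With all 4 arrays weighted alike the median was -0.01. The group mean was below 0 on both arrays with cKO in Cy5 (-0.09) and above 0 on both with cKO in Cy3 (0.06).

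Among the CHD genes, Chd6 was above 0 on every array and was the only remodeller gene to be so, where 5.92% of all genes were. It read 0.21, 0.61, 0.23 and 0.44, with a mean of 0.37 ± 0.19 (SD). The fitted ratio of Chd6 was 0.35 ± 0.22 (SE), with a 95% interval from -0.19 to 0.89 (limma p 0.159, adjusted p 1). With arrays fitted as independent its unadjusted limma p was 0.0494 and its adjusted p 0.99. Its 2 features, both annotated with a clone name that is now a synonym of Chd6, did not behave alike. One read 0.44, 0.55, 0.80 and 0.91, and the other -0.03, 0.68, -0.33 and -0.03, so the mean of Chd6 rests largely on 1 feature.

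Chd7, mutated in CHARGE syndrome and active in granule cell progenitors, had the widest spread of all 36 genes. Its single feature read -0.60, 0.71, -1.42 and -0.01. Its mean was -0.33 ± 0.90 (SD) and its fitted ratio -0.44 ± 0.53 (SE, limma p 0.444). With replicate 2 left out the ratio of Chd7 was -1.01, and with replicate 3 left out it was 0.13. RefSeq also lists Chd7 as an older name of Chd3, so the assignment of this feature rests on the current symbol. Chd8, an autism-linked relative, read -0.46, 0.33, 0.22 and -0.12, and its mean of -0.0075 was far smaller than its SD of 0.36. Chd9 was read by 4 features and gave -0.12, 0.23, 0.23 and -0.51. On replicates 2 and 3 a single Chd9 feature read 1.10 and 1.12, while the others lay between -0.47 and 0.30.

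Chd1, which binds trimethylated H3K4 and acts in transcribed genes, read 0.75, -0.06, -0.28 and -0.22, so that only replicate 1 was above 0. Chd2, its paralog and an epilepsy gene, read -0.27, 0.69, 0.04 and 0.15. The feature that carried the symbol Chd2 ran from -0.81 to 1.82 and followed the dye, while the other 2, under clone names, had means of -0.11 and 0.13. The fitted ratios were 0.14 ± 0.31 for Chd1 (SE, limma p 0.671) and 0.15 ± 0.27 for Chd2 (SE, limma p 0.590).

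The NuRD motors Chd3, Chd4 and Chd5 all had means below 0, and none of the differences exceeded the spread between arrays. Chd4, the main NuRD motor of neural progenitors and granule neurons, read -1.05, 0.49, -0.33 and 0.24, with signs that followed the dye. One of its 3 features read -2.31 on replicate 1 and 1.42 on replicate 2, and the other 2 had means of -0.11 and -0.22. The fitted ratio of Chd4 was -0.30 ± 0.45 (SE, limma p 0.534), and its mean was -0.16 ± 0.68 (SD). Chd3, read by 1 feature, gave -1.0, 0.88, -0.31 and -0.79, with a mean of -0.30 ± 0.84 (SD), so 3 of 4 arrays were low and replicate 2 was high. Chd5, a form found mostly in neurons, gave -0.88, 0.02, -0.0033 and -0.10. Its value on replicate 1 came from 2 of its 3 features, at -1.48 and -0.98, while the third read -0.17. Without replicate 1 the fitted ratio of Chd5 was -0.02, against -0.29 ± 0.28 (SE) with it.

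Over the 9 CHD genes the mean was -0.38, 0.43, -0.18 and -0.10 on replicates 1 to 4, or -0.06 ± 0.35 (SD), the largest spread of the 4 groups of remodellers. The group mean was -0.28 over the arrays with cKO in Cy5 and 0.17 over those with cKO in Cy3. The median fitted ratio was 0.03, and the median of the 4-array means was -0.04, so the sign of this group was not settled. With dye-flip columns turned, the reading of the ratios as Cy5 over Cy3, the CHD median was -0.30.

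**Figure D3:**
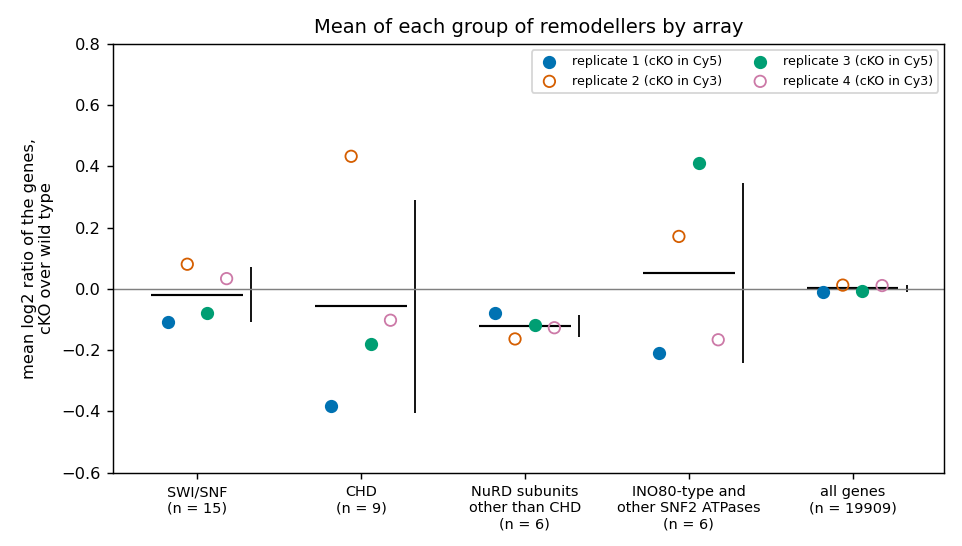
Mean log2 ratio of cKO over wild type of the genes of each group (vertical axis) on replicates 1 to 4, with filled points for cKO in Cy5, open points for cKO in Cy3, a line at the mean of the 4 arrays and a bar for ± 1 SD. The 4 arrays of the 6 NuRD subunits lie between -0.16 and -0.08, and those of the 9 CHD genes between -0.38 and 0.43.

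The NuRD subunits other than the motors are deacetylases, DNA-binding and scaffold proteins. The deacetylase genes Hdac1 and Hdac2 lay on opposite sides of 0 on replicate 3. Hdac1 read 0.47, 0.09, -0.85 and 0.19, and Hdac2 read 0.07, 0.06, 0.60 and -0.58. Their means were -0.025 ± 0.57 and 0.038 ± 0.48 (SD). Mbd3, which holds NuRD together, read 0.21, -0.87, 0.11 and 0.34, so replicate 2 alone was below 0. Mta1, a scaffold subunit, read -0.47, 0.14, -0.28 and -0.44, with a mean of -0.26 ± 0.28 (SD), and its paralog Mta2 read -0.02, 0.14, 0.31 and -0.28. Mta1 lay below Mta2 on all 4 arrays, and the difference Mta1 minus Mta2 was -0.30 ± 0.27 (SD) with a value of only -0.0050 on replicate 2. This holds for the average of the 2 Mta2 features and for neither alone. One read -0.63 on replicate 4 and the other 0.11 on replicate 2, each below Mta1 there.

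Gatad2a (p66alpha), which bridges the deacetylase and the motor modules of NuRD, had the lowest fitted ratio of the 36 genes with the columns as deposited. It read -0.72, -0.54, -0.59 and 0.02 on replicates 1 to 4. The first 3 arrays lay close together below 0, and replicate 4 lay at 0. Its fitted ratio of -0.62 ± 0.30 (SE) corresponds to 1.54-fold less in cKO. The 95% interval went from -1.35 to 0.11 (limma p 0.0839, adjusted p 1). The mean of 4 arrays was -0.46 ± 0.33 (SD). With arrays fitted as independent the unadjusted limma p of Gatad2a was 0.0409 and the adjusted p 0.977. Both of its features carried a clone name that is now a synonym of Gatad2a. One read -0.99, -0.77, -1.04 and 0.00 and the other -0.46, -0.32, -0.14 and 0.03, so both were low on the same 3 arrays. Replicate 4 shared its cKO sample with replicate 3 and its wild-type sample with replicate 1, on both of which Gatad2a was low. With dye-flip columns turned the ratio of Gatad2a was -0.26 (limma p 0.518), and Chd7 (-0.91), Smarcd2 (-0.79), Chd3 (-0.73) and Chd4 (-0.62) were lower. Its paralog Gatad2b had a fitted ratio of 0.04 ± 0.28 (SE).

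Over these 6 NuRD subunits the mean was -0.08, -0.16, -0.12 and -0.13, or -0.12 ± 0.04 (SD), while the medians of the 6 genes were 0.025, 0.075, -0.085 and -0.135 and so above 0 on replicates 1 and 2. Single genes went either way, with fitted ratios below 0 for Gatad2a, Mta1, Hdac1 and Mbd3 and above 0 for Hdac2 and Mta2. The median fitted ratio was -0.14, and the median of the 4-array means was -0.039. With Chd3, Chd4 and Chd5 added, the 9 NuRD genes had means of -0.38, 0.05, -0.15 and -0.16.

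The 3 motors of the INO80 type had fitted ratios above 0, each smaller than its SE, and each had arrays on both sides of 0. By the mean of 4 arrays 2 of them lay above 0 and Ep400 lay below. Ino80, the motor of the INO80 complex, read 0.47, -0.17, 0.38 and -0.17, above 0 on the Cy5 arrays and below 0 on the Cy3 arrays. It was read by 3 features under a clone name, 1 of which was above 0 on every array (1.38, 0.18, 0.59 and 0.68), while another had a mean of -0.49. Srcap, which deposits H2A.Z, read 0.15, -0.12, 0.56 and 0.28, so 3 of 4 arrays were above 0, with a fitted ratio of 0.19 ± 0.22 (SE, limma p 0.421). Ep400, the motor of the TIP60 complex, read -0.61, 0.62, 0.20 and -0.48, with a fitted ratio of 0.07 ± 0.30 (SE, limma p 0.823). Its mean was -0.07 ± 0.58 (SD). Ep400 was low on the 2 arrays that shared a wild-type sample and high on the others.

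Of the other SNF2 motors, Atrx, an X-linked gene whose protein deposits H3.3 in heterochromatin, read -0.72, 0.18, -0.06 and 0.10. Most of this came from 1 of its 4 features, which read -1.79, 1.17, -1.0 and 0.52 and followed the dye. Hells (Lsh), which supports DNA methylation and is abundant in dividing cells, read -0.72, 0.29, 0.28 and -0.62, with a mean of -0.19 ± 0.55 (SD). Replicates 1 and 4 were the low arrays again, and 1 Hells feature read -1.43 and -1.18 there. Smarcad1, which helps to restore silent chromatin after replication, had the highest fitted ratio, at 0.50 ± 0.36 (SE, limma p 0.217, adjusted p 1). Its values were 0.17, 0.23, 1.11 and -0.11, so the ratio of Smarcad1 came mainly from replicate 3 and was 0.12 without it. The mean of 4 arrays was 0.35 ± 0.53 (SD) for Smarcad1, below the 0.37 of Chd6. Over the 6 motors Ino80, Srcap, Ep400, Atrx, Hells and Smarcad1 the mean was -0.21, 0.17, 0.41 and -0.17, or 0.05 ± 0.29 (SD). The median fitted ratio was 0.13, and the median of the 4-array means was 0.031, with 3 genes above 0 and 3 below.

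Dye entered the values of these genes about as it did those of all genes. The dye part of a gene is taken here as the mean of the 2 arrays with cKO in Cy5 minus the mean of all 4 arrays. It was larger in size than the 4-array mean for 21 of the 36 genes, or 58.3%, where 51.4% of all genes had the larger dye part. The sign followed the dye on all 4 arrays for 6 genes, or 16.7%, against 13.2% of all genes. Those were Smarcb1, Smarcc1, Smarcd2, Chd4, Ino80 and Atrx. The largest dye parts were -0.70 for Smarcd2, -0.68 for Chd7 and -0.53 for Chd4. Chd6 and Gatad2a had dye parts of -0.15 and -0.20, smaller in size than their means. A set of 7 genes, noticed after the values were seen, was below 0 on replicates 1 and 4, which shared a wild-type sample, and above 0 on replicates 2 and 3. It held Smarca4, Smarcc2, Chd8, Chd9, Ep400, Hells and Mta2, or 19.4% of the 36 genes, where 7.66% of all genes had these signs. Over the 36 genes the median size of the dye part was 0.15 and that of the 4-array mean 0.11, beside 0.15 and 0.14 over all genes.

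**Figure D4:**
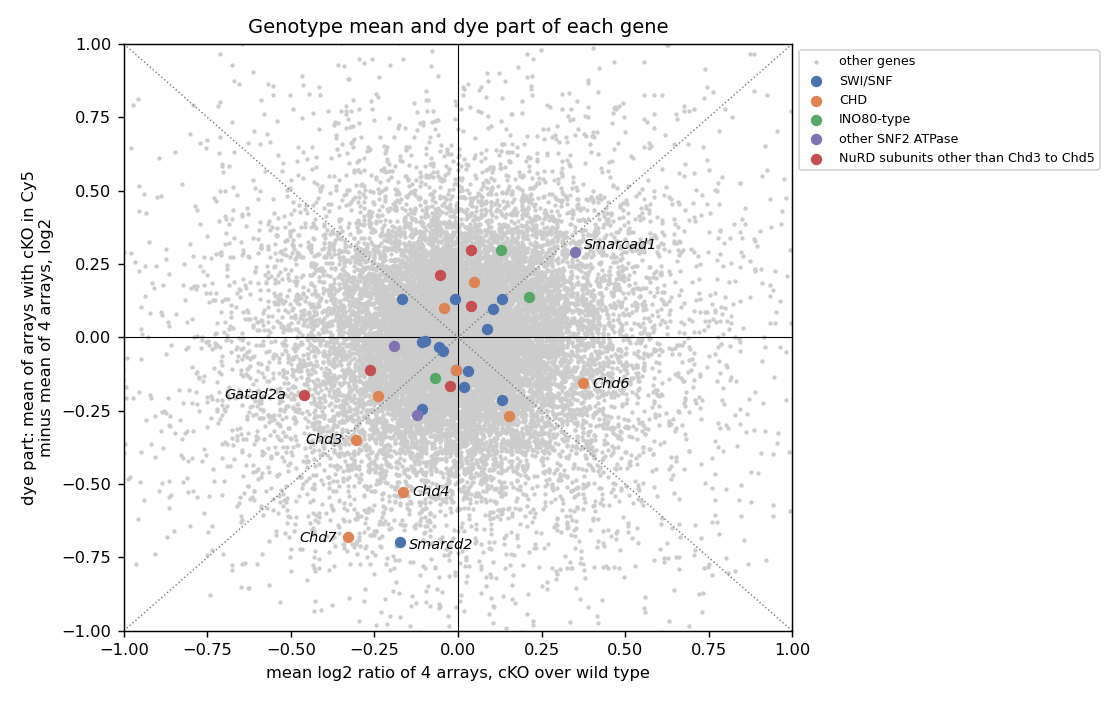
Mean log2 ratio of 4 arrays (horizontal axis) against the dye part, the mean of the arrays with cKO in Cy5 minus the mean of 4 arrays (vertical axis), for the remodeller genes in colour and all other genes in grey. Dotted lines mark equal size, and 254 genes lie outside the axes. Chd6 and Gatad2a lie nearer the horizontal axis, and Smarcd2, Chd7 and Chd4 far below it.

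The other subunits of these complexes and the remaining SNF2 motors gave no called gene either. They formed 5 lists of 59 genes, of which 57 were measured, and limma called 0 of them (0 at an unadjusted p under 0.05). Their median fitted ratio was -0.05, with 22 above 0 and 35 below, from -0.57 (Bicra, a subunit of non-canonical BAF) to 0.46 (Mbd2, a methyl-DNA binder of NuRD). There were 3 of the 57 genes above 0 on all 4 arrays, where 5.92% of all genes were, and 1 below 0, where 5.72% were. Ino80d, a subunit of INO80, had a fitted ratio of 0.42 ± 0.21 (SE, limma p 0.0971) with arrays from 0.26 to 0.74. Dpf3, which in neurons takes the place of the progenitor subunit Phf10, read -0.25, -0.19, -0.38 and -0.44, with a fitted ratio of -0.27 ± 0.20 (SE, limma p 0.219). The other subunits that differ between progenitor and neuronal SWI/SNF had ratios of -0.09 for Phf10, 0.13 for Dpf1, -0.10 for Ss18 and -0.05 for Ss18l1. These 4 values were each smaller than their SE. Smarca1, the other ISWI motor gene, had a fitted ratio of -0.0033 ± 0.21 (SE), and the 11 ISWI genes, with Smarca5 itself, had a median of -0.08.

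Cell type markers were read beside these results. Granule cell progenitor genes had means of -0.62, -0.03, -0.41 and -0.51 on replicates 1 to 4. Of their 17 fitted ratios 15 lay below 0, where 50.7% of all genes had one below 0. On all 4 arrays 5 of the 17 genes were below 0, against 5.72% of all genes. Limma called 0 of the 17, and 3 had an unadjusted p under 0.05, against 1.56% of all genes. Caudal hindbrain Hox genes had a mean of 3.08 on replicate 1 and of -0.27, -0.51 and -0.29 on the other arrays. The median fitted ratios of the other 9 marker lists lay between -0.15 (erythroid cells) and 0.24 (microglia). The part of these cell types in the remodeller ratios was not tested. Without replicate 1, the array with high Hox values, the median fitted ratio of the 36 remodeller genes was 0.03, and limma again called 0 of them.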

How the data were processed

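The authors deposited log ratios of 38880 features on 4 arrays, read here as log2 ratios. Log base, normalization and filters are not given in any source used here, and scanner intensities were not used, so dim features could not be filtered. The number of arrays limits the precision. Platform annotation gave 30457 features 1 symbol, and 8423 none. Of 21476 symbols, 12795 were current in RefSeq (GRCm38.p6, names only), 8317 were replaced through a synonym of a single gene and 364 were kept. Values were centred on the array median and averaged over the features of a gene. The 36 genes had 70 features, of which 21 were named through synonyms.

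The fit was limma 3.58.1 (lmFit, eBayes, intercept alone, two-sided) in R 4.3.3, with a set correlation of 0.5 where arrays share RNA. The code was tested on simulated data with that same correlation and no dye effect, so the test does not show that the fit suits these arrays. Calls needed an adjusted p (Benjamini-Hochberg) under 0.05. The measured correlation over genes was 0.012 for replicates 1 and 4 and -0.044 for replicates 3 and 4. Over the pairs that share no RNA it lay between -0.087 (replicates 1 and 2) and 0.047 (replicates 1 and 3). No pair of arrays agreed closely over genes, so the lack of called genes is not particular to the remodellers. Nothing says that the RNA samples came from separate animals, so p-values measure only the spread between these samples, which may be technical. Groups of genes were described with no test. All 36 genes were named by rule, with Smarca5 and Smarca1. Other subunits were to be named at an unadjusted p under 0.05, which none had, so those given were chosen after their values were seen. Alternatives were independent arrays, turned dye-flip columns, a dye term, no centring, scaled arrays, unmerged symbols, feature medians and leaving out each array. The genes and lists were chosen with earlier results of these data known.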

Additional observations from a re-analysis of the deposited data

Results flagged for a closer look

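Among 40 values examined over the 4 arrays (36 genes and 4 group means), 2 had 1 array far from the other 3, and chance would give about 2. Arid1b read 0.82 on replicate 2, while the other arrays lay between -0.16 and -0.01. Chd5 read -0.88 on replicate 1, while the other arrays lay between -0.10 and 0.02.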

How the results depend on the processing

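Limma called 0 of the 36 remodeller genes and 0 of all genes under all 11 alternatives. The smallest adjusted p over all genes was 1 with the fit as reported, 0.0889 with independent arrays, 0.34 with dye-flip columns turned and 0.37 with a dye term, and the genes with an unadjusted p under 0.05 were 310, 995, 318 and 621 in number. Without replicate 2 they numbered 139 and without replicate 4 934. Among the 36 genes, Gatad2a reached such a p with a dye term (-0.53, limma p 0.0469) and without replicate 4 (-0.62, limma p 0.0158), and Smarcd2 with dye-flip columns turned (-0.79, limma p 0.02). The SWI/SNF median of -0.04 became -0.01 with independent arrays and 0.0037 with a dye term, and the NuRD median of -0.14 became -0.039 with independent arrays. Leaving out an array gave medians of -0.09 to 0.018 for SWI/SNF, -0.16 to -0.022 for NuRD, -0.12 to 0.06 for CHD, -0.015 to 0.14 for the other motors and -0.10 to 0.03 for all 36 genes. With dye-flip columns turned the CHD median moved most, and the medians were -0.30 for CHD, -0.057 for SWI/SNF, -0.054 for NuRD, 0.015 for the other motors and -0.087 for all 36 genes, and Gatad2a had -0.26. Of 390 recomputed gene ratios 53 changed sign, in 26 genes, 32 of them on leaving out an array. With no centring, scaled arrays, unmerged symbols or feature medians 0 did. Replicate 4 had a weight of 0 in the fit as reported, so leaving it out could change no ratio. Those ratios are among the 390. With independent arrays the genes whose sign changed were Smarca4 (-0.11), Smarcb1 (0.018), Smarcc1 (0.031), Smarcc2 (-0.045), Smarcd3 (-0.01), Chd8 (-0.0075), Chd9 (-0.043) and Ep400 (-0.068). With dye-flip columns turned they were Smarca4 (-0.48), Smarcc2 (-0.14), Arid1b (-0.33), Actl6b (0.25), Chd2 (-0.31), Chd6 (-0.058), Chd8 (-0.19), Chd9 (-0.038), Ep400 (-0.34) and Mbd3 (0.40). With a dye term they were Smarcb1 (0.0037), Smarcc1 (0.0038) and Smarcd3 (-0.005). Ratios whose sign changed on leaving out an array ranged as follows. Among SWI/SNF and CHD genes these were Smarca2 (-0.12 to 0.18), Smarcb1 (-0.15 to 0.084), Smarcc1 (-0.083 to 0.078), Smarcd1 (-0.015 to 0.26), Smarcd2 (-0.87 to 0.18), Smarcd3 (-0.10 to 0.12), Chd1 (-0.17 to 0.23), Chd3 (-0.66 to 0.063), Chd4 (-0.69 to 0.18), Smarca4 (-0.35 to 0.20), Smarcc2 (-0.09 to 0.081), Arid1b (-0.083 to 0.31), Chd2 (-0.12 to 0.35), Chd8 (-0.12 to 0.17), Chd7 (-1.01 to 0.13), Chd9 (-0.083 to 0.11). Among the others they were Ino80 (-0.0095 to 0.43), Atrx (-0.39 to 0.090), Hells (-0.26 to 0.029), Ep400 (-0.20 to 0.19), Mbd3 (-0.24 to 0.16), Hdac1 (-0.19 to 0.23), Hdac2 (-0.12 to 0.34), Mta2 (-0.025 to 0.14). The cause of these changes was not tested. Each array sets 1 cKO against 1 wild-type RNA sample, so the fit to ratios is already paired within arrays, and no replicate block was added. Unmerged symbols left out the 6 genes named through clone names alone.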

Other observations

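The 17 motor genes among the 36 had mean log2 ratios of -0.36, 0.34, 0.08 and -0.13 on replicates 1 to 4. The 12 SNF2 motors outside the list, which include DNA repair translocases such as Ercc6 and Rad54l, had means of -0.41, 0.11, 0.21 and -0.0073. Both sets were lowest on replicate 1, and limma called 0 genes of either (0 at an unadjusted p under 0.05).

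The features named Actl6 and Actl6b were low on replicate 2 in 3 of 4 cases, at -1.34, -1.27 and -0.82, and the fourth read 0.32. On the other arrays these 3 features lay between -0.35 and 0.50. Replicate 2 was the only array with its cKO sample and its wild-type sample.

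A feature named Pb1, an older name of both Pbrm1 and Adgrg3 and assigned to neither, read -0.83, 1.08, -1.30 and 1.57 and followed the dye.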
